A study of Mus musculus with 16 samples.

Results

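The genes described here code for a group of proteins that act together at the tips of actin bundles: Eps8, whirlin (Whrn), myosin XVa (Myo15), LGN (Gpsm2) and the G-protein subunit Gαi3 (Gnai3), with the Eps8 relatives Eps8l1 and Eps8l2. They are 7 of the 54532 genes in the deposited tables and were chosen by name. The choice followed an earlier analysis of these same counts, in which Eps8 and Whrn stood higher in eGFP-GluA2 cells once a library background was taken into account. The other 5 were added as known partners or relatives. The difference between the genotypes is therefore given below as a description of these genes and is not tested on them. All 7 passed the filter on low counts, which kept 26257 genes.

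RNA-seq was done on parvalbumin (PV) interneurons, fast-spiking inhibitory cells, sorted from the cortex of adult mice after fixation in 4% paraformaldehyde for 15 min, in both groups. In 7 libraries the cells came from PV-Cre;lsl-eGFP-GluA2 mice, which express eGFP fused to the AMPA receptor subunit GluA2, and in 9 from PV-Cre;lsl-eGFP control mice, which express eGFP alone. In both groups the transgene was switched on by Cre in PV cells, so the controls carry Cre and eGFP too. Mean age was 113.1 ± 11.6 days across the study (per the labels, which do not name the error), and the labels number the libraries as biological replicates. The labels give removal of calcium-permeable AMPA receptors as the purpose of the eGFP-GluA2 mice.

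Eps8 binds the barbed, growing end of actin filaments, where it caps them, and it also bundles filaments. In the hair cells of the inner ear, myosin XVa walks along the actin core of each stereocilium and carries whirlin and Eps8 to the tip. LGN and Gαi3 join that complex in the tallest row and are needed for its length, and mice without Eps8, whirlin or myosin XVa have short stereocilia and are deaf. In neurons, Eps8 is known from filopodia, spines and growth cones, and LGN and Gαi3 are better known for orienting the mitotic spindle.

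The libraries differed widely in reads from genes that PV cells are not known to use. Reads in 1450 receptor genes for smell and pheromones, which belong to sensory neurons of the nose, made up 82.4 to 4148 CPM (counts scaled to a fixed library total), and this sum is called the background here. It was low (up to 162 CPM) in 2 eGFP-GluA2 and 3 eGFP libraries, middle (676 to 1277 CPM) in 3 and 2, and high (from 1911 CPM) in 2 and 4. Libraries held 7454165 to 15462544 counts. PV markers such as Pvalb and Gad1 summed to 4648 to 11768 CPM in eGFP-GluA2 and 4237 to 12171 CPM in eGFP libraries. These sums were 11478 to 12171 CPM at low, 9317 to 10582 CPM at middle and 4237 to 8011 CPM at high background. The checks of the labels held: Gria2, which codes for GluA2, averaged 963 CPM in eGFP-GluA2 and 587 CPM in eGFP libraries. Its ranges of 718 to 1215 and 472 to 783 CPM overlapped. Above all eGFP libraries stood 5 of 7 eGFP-GluA2 libraries by CPM and 7 of 7 by TPM. Gt(ROSA)26Sor had 12.7 to 25.1 CPM in eGFP-GluA2 and 1.91 to 5.24 CPM in eGFP libraries. All CPM values of single genes and marker sums are scaled between libraries by the TMM method. In sorted bulk samples, fewer cells of a type and less RNA per cell cannot be told apart.

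Eps8 (ENSMUSG00000015766, chr6:137477245-137654876 on GRCm38, minus strand) was the member that differed most between the genotypes, with more in eGFP-GluA2 cells. It had 21.4 CPM in the lowest, 26.2 CPM in the median and 38.2 CPM in the highest eGFP-GluA2 library, against 12.7, 16.5 and 21.9 CPM in eGFP libraries. In 6 of 7 eGFP-GluA2 libraries it stood above all 9 eGFP libraries, and the groups overlapped through eGFP-GluA2 replicate 3. The mean was 29.9 ± 7.47 CPM in eGFP-GluA2 and 17 ± 3.33 CPM in eGFP libraries (SD, n = 7 and 9), a ratio of 1.76. The fitted log2 fold change was 0.82 ± 0.15 (edgeR, ± SE, with a 95% interval of 0.49 to 1.14). Each library held 135 to 536 reads of the gene. Eps8 lies 24.4 Mb from Gt(ROSA)26Sor, the locus read in the check of the labels, on the same chromosome. What part linkage to that locus has in the difference was not tested.

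Whrn (ENSMUSG00000039137, chr4:63414910-63495991, minus strand), the PDZ-domain scaffold that myosin XVa carries, was higher in eGFP-GluA2 cells too. Its lowest, median and highest eGFP-GluA2 libraries had 38, 55.9 and 63.9 CPM, against 28.1, 36.5 and 48.1 CPM in eGFP libraries. Again 6 of 7 eGFP-GluA2 libraries stood above every eGFP library. The exception was eGFP-GluA2 replicate 1, at 38 CPM, which lay among the eGFP libraries. Means were 53.6 ± 7.92 CPM in eGFP-GluA2 and 35.2 ± 6.36 CPM in eGFP libraries, a ratio of 1.52, and the fitted log2 fold change was 0.61 ± 0.12 (0.35 to 0.87).

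**Figure D1:**
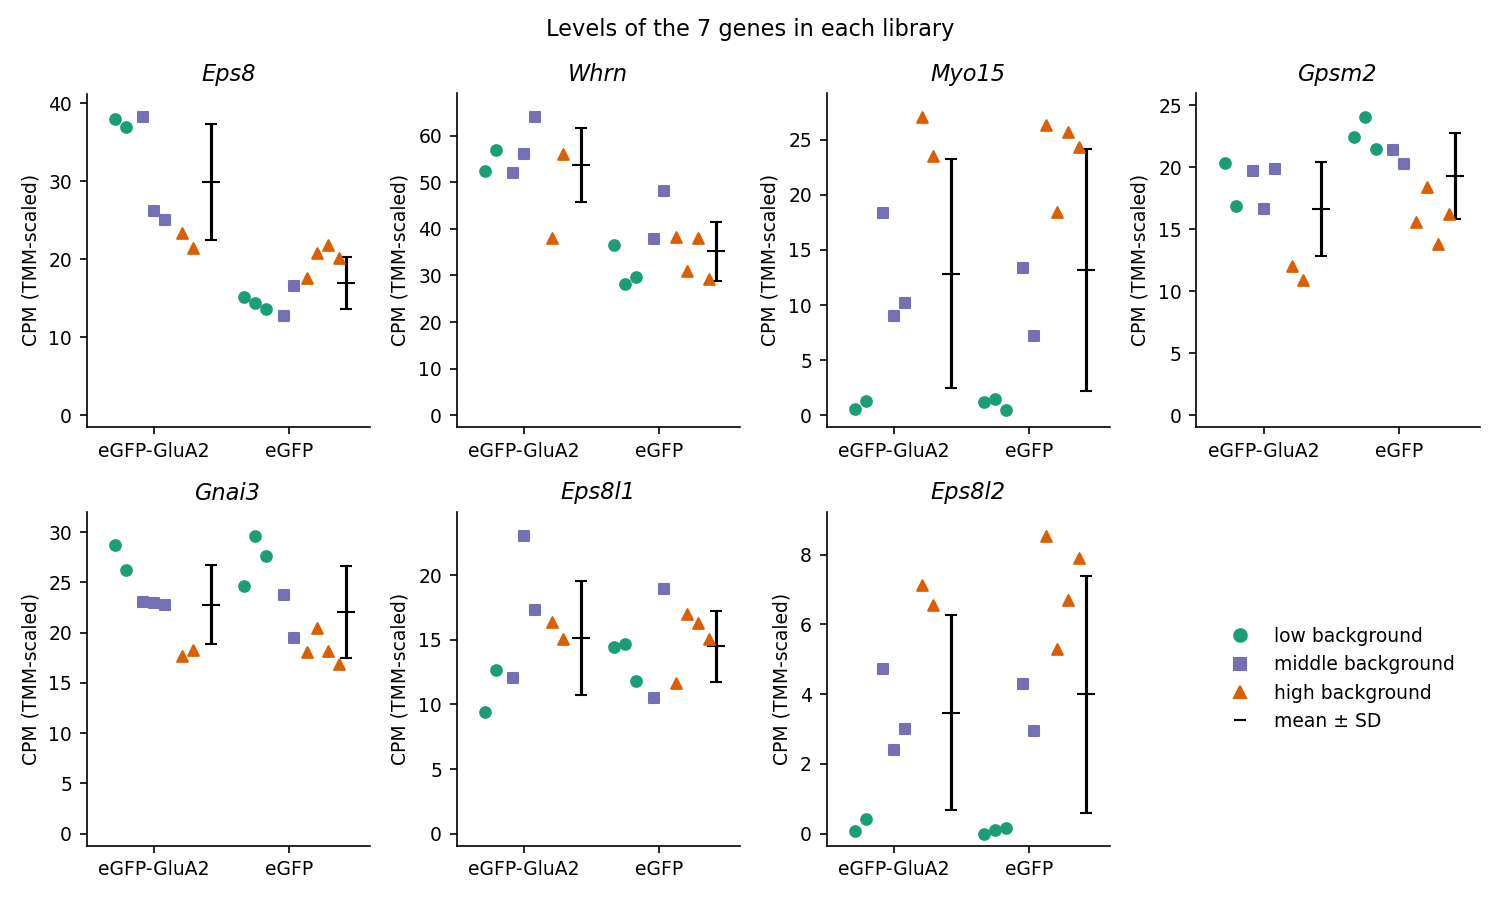
CPM (TMM-scaled) of each gene in the 7 eGFP-GluA2 libraries (left) and the 9 eGFP libraries (right), one point per library, coloured by background, with the mean and SD. Eps8 and Whrn had 6 of 7 eGFP-GluA2 libraries above all eGFP libraries, and the points of Myo15 and Eps8l2 follow the background in both groups.

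The size of the Eps8 difference was not the same at each background. In low-background libraries Eps8 had 38 and 37.0 CPM in eGFP-GluA2 cells, against 15.1, 14.4 and 13.6 CPM in eGFP cells, a ratio of 2.61. In middle-background libraries it had 38.2, 26.2 and 25 CPM in eGFP-GluA2 cells, against 12.7 and 16.5 CPM in eGFP cells, a ratio of 2.04. The groups did not overlap at either level, where 9.23% and 8.86% of all tested genes were higher without overlap at low and middle background. In high-background libraries the 23.4 and 21.4 CPM of eGFP-GluA2 cells overlapped with the 17.6, 20.8, 21.9 and 20.2 CPM of eGFP cells, a ratio of 1.11. On the log2 scale the difference was 1.37, 1.00 and 0.16 from low to high background. Whether it differs between background levels was not tested. The PV marker sums were lower at high background too, and what part that has in the smaller difference was not tested.

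Whrn kept a closer size. It had 52.5 and 56.9 CPM in low-background eGFP-GluA2 libraries, against 36.5, 28.1 and 29.6 CPM in eGFP libraries, and the groups did not overlap. The middle-background eGFP-GluA2 libraries had 52.0, 55.9 and 63.9 CPM, against 37.8 and 48.1 CPM in eGFP libraries, again without overlap. In the high-background libraries, 38 and 56.1 CPM in eGFP-GluA2 cells overlapped with 38.3, 31.0, 37.9 and 29.3 CPM in eGFP cells. The log2 differences were 0.80, 0.42 and 0.44 from low to high background.

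Of all tested genes, 0.975% were higher without overlap at both the low and the middle background, and 0.00381% were called in the edgeR test without covariates (adjusted p under 0.05), where none of the 7 genes was. With the log2 background as a covariate 0.0343% of genes were called, Eps8 and Whrn among them, with log2 fold changes of 0.81 ± 0.14 and 0.61 ± 0.11. These 2 genes were chosen for that call, so nothing is read from it.

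**Figure D2:**
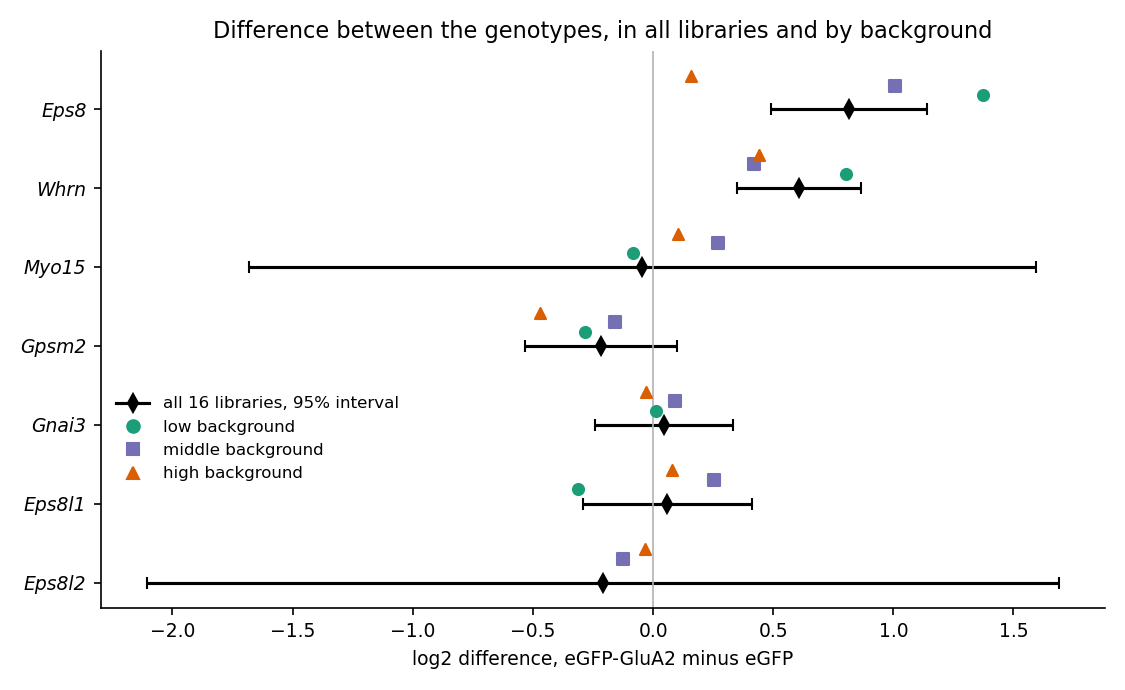
Difference between eGFP-GluA2 and eGFP on the log2 scale for each gene, as the edgeR estimate over all 16 libraries with its 95% interval (diamonds) and as differences of mean log2 CPM at each background (coloured points; none for Eps8l2 at low background, where every eGFP library had 2 reads or fewer). Eps8 shows 1.37, 1.00 and 0.16 from low to high background, while the intervals of the other genes apart from Whrn span 0.

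Marker genes of other cell types were set beside these differences. All 7 excitatory neuron markers had log2 fold changes above 0 (median 0.32, highest 0.58), as did 45.5% of all tested genes. None passed the edgeR test over all libraries, nor DESeq2 or limma-voom. By edgeR 1 was at an unadjusted p under 0.05, as were 1.12% of all tested genes. In the low-background libraries alone 2 of the 7 passed, higher in eGFP-GluA2 cells, Camk2a (0.29) among them, and so did 1 of 8 PV markers, Kcnc1 (0.27). That fit, added after seeing the data, called 154 of 19457 tested genes, 84 of them higher. The excitatory markers summed to 196 to 340 CPM in eGFP-GluA2 and 153 to 299 CPM in eGFP libraries. In the low-background libraries it was 278 to 340 CPM in eGFP-GluA2 and 243 to 254 CPM in eGFP cells. Oligodendrocyte markers were above 0 for 5 of 6, with sums of 96.9 to 136 CPM in eGFP-GluA2 and 65.9 to 177 CPM in eGFP libraries. Astrocyte sums were 66.1 to 124 and 71.9 to 168 CPM in eGFP-GluA2 and eGFP libraries, with 1 of 6 markers above 0. Microglial sums were 14.5 to 24.9 and 9.67 to 25.6 CPM, and endothelial and mural sums 10.6 to 76.4 and 11.7 to 70.8 CPM. Markers of other interneurons summed to 179 to 313 CPM in eGFP-GluA2 and 156 to 332 CPM in eGFP libraries. No marker was at 0 in every library, and the part of these cells in the Eps8 and Whrn differences was not tested.

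Myo15 (ENSMUSG00000042678, chr11:60469339-60528369, plus strand), the motor that carries whirlin and Eps8 in hair cells, showed no difference that stood out from its spread. It had 0.567, 10.2 and 27.0 CPM in the lowest, median and highest eGFP-GluA2 libraries, against 0.433, 13.4 and 26.3 CPM in eGFP libraries. The fitted log2 fold change of −0.04 ± 0.78 had an interval of −1.68 to 1.59, too wide to exclude a change of the size seen for Eps8. Its level followed the background of the library. Low-background libraries held 8 and 15 reads in eGFP-GluA2 and 14, 16 and 5 reads in eGFP cells, while high-background libraries had 18.4 to 27.0 CPM, on average 24.5 times the low-background level.

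The slope on the background was not itself used to choose the genes. For Eps8 and Whrn it is not free of the choice, which took a library background into account. The slope is the change in log2 CPM per log2 unit of background in an edgeR fit that also holds the genotype. Over all tested genes 75.4% had a slope that passed the test, 44.0% rising and 31.4% falling, so a call alone says little about a gene. Myo15 rose at 0.91 ± 0.05 (adjusted p = 2.09e-14) and Eps8l2 at 0.93 ± 0.07 (adjusted p = 2.07e-11), close to in proportion to the receptor genes of the nose. Gpsm2 fell at −0.10 ± 0.03 (adjusted p = 0.000893) and Gnai3 at −0.11 ± 0.02 (adjusted p = 1.23e-05). Eps8 (−0.0032 ± 0.034, adjusted p = 0.936), Whrn (−0.0037 ± 0.028, adjusted p = 0.910) and Eps8l1 (0.05 ± 0.03, adjusted p = 0.159) did not pass. The Eps8l1 slope did pass with RLE scaling (0.07, adjusted p = 0.0415) and when eGFP-GluA2 replicate 2, 4 or 5 or eGFP replicate 2 or 5 was left out (adjusted p of 0.0127 to 0.0285). For Eps8 the fit joined groups that ran in opposite directions: from low to high background it averaged 37.5, 29.8 and 22.4 CPM in eGFP-GluA2 libraries and 14.4, 14.6 and 20.1 CPM in eGFP libraries.

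**Figure D3:**
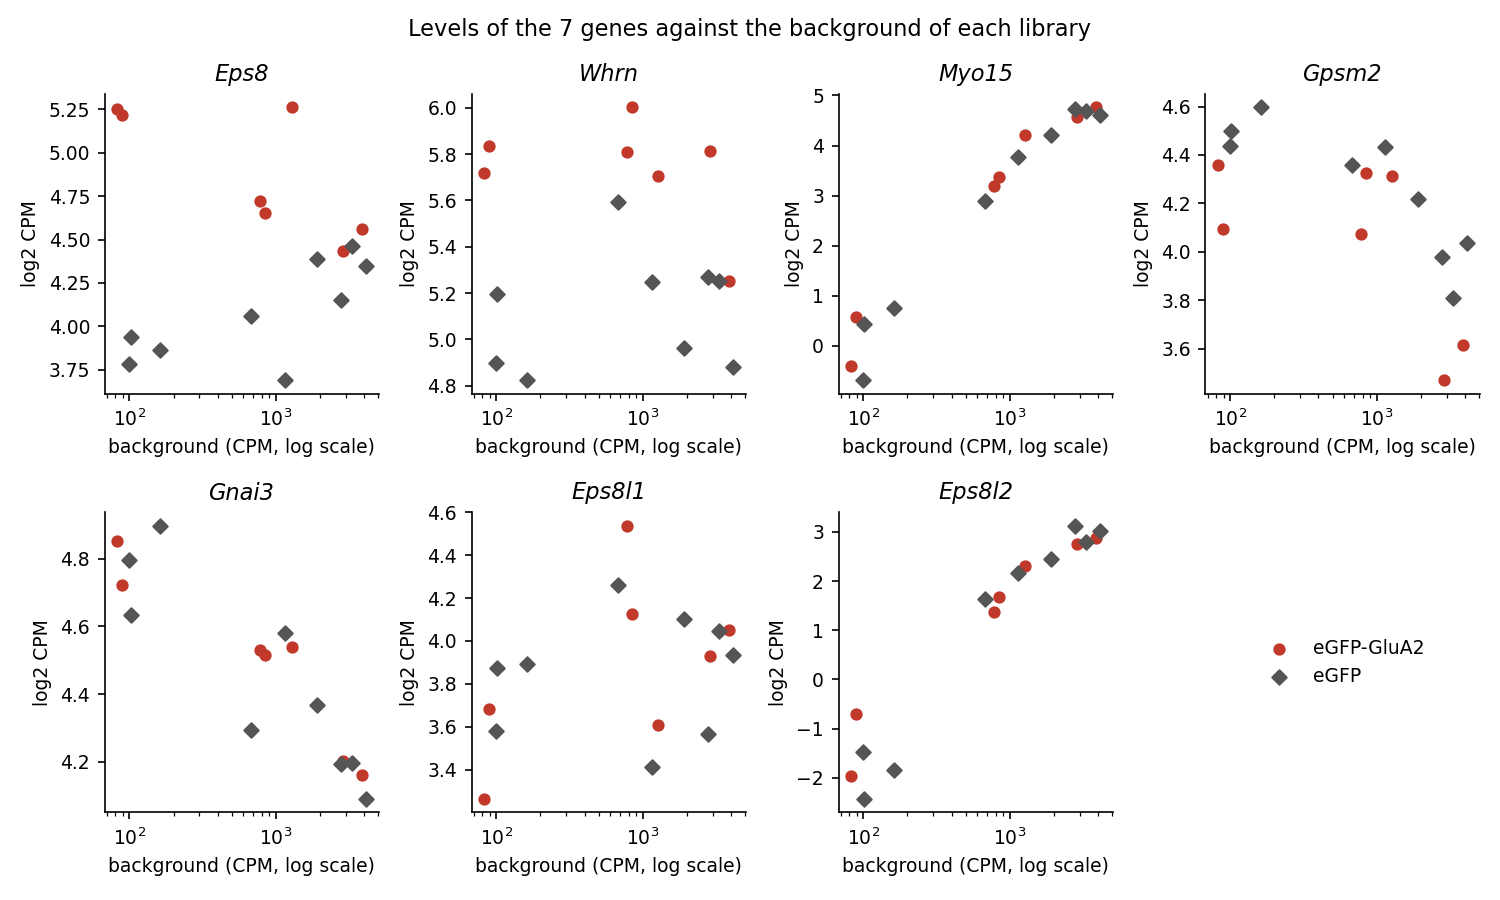
Log2 CPM of each gene (vertical axis, scaled per panel) against the background of each library in CPM (horizontal, log scale), for eGFP-GluA2 (circles) and eGFP libraries (diamonds). Myo15 and Eps8l2 climb with slopes of 0.91 and 0.93, Gpsm2 and Gnai3 fall with slopes of −0.10 and −0.11, and the Eps8 groups stand apart at low and middle background.

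The promoters of these genes differ in a way that the choice did not use, and those of Whrn, Gpsm2 and Myo15 are shown as genes whose slope did not pass, fell and rose. Each is the 250 bases before the RefSeq start on GRCm38.p6, written 5′ to 3′ on the gene's strand. They cover chr4:63495992-63496241 (Whrn, minus strand), chr3:108722300-108722549 (Gpsm2, minus strand) and chr11:60469089-60469338 (Myo15, plus strand). Capitals mark the GC box, GGGCGG or its reverse complement CCGCCC.
Whrn: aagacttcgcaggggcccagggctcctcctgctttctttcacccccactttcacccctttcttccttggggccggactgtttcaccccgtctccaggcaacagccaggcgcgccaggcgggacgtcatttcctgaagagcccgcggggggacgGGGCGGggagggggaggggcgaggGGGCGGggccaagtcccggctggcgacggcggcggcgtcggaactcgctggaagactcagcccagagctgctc
Gpsm2: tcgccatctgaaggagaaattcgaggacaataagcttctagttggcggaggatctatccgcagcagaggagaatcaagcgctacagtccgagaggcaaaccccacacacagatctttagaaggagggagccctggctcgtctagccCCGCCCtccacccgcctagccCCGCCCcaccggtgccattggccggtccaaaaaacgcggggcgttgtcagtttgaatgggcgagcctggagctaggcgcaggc
Myo15: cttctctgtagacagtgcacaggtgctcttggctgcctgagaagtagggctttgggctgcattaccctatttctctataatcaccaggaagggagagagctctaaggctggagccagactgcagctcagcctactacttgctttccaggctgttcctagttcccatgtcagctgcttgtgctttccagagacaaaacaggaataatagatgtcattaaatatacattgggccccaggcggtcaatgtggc
The Whrn window held 21 CpG and 69.6% G and C, with 2 GC boxes, and the Gpsm2 window 17 CpG and 60% G and C, also with 2. The Myo15 window held 1 CpG and 49.6% G and C, with no GC box. Over 32851 promoters of this length the median was 6 CpG and 52.4% G and C, and 32.7% had a GC box. Gnai3 had 18 CpG and no GC box, and Eps8l2 had 14 CpG and 2 GC boxes although its level followed the background like that of Myo15. Eps8l1 has 3 annotated starts, with 14, 7 and 3 CpG and 1 GC box each. The windows of its last 2 starts overlap and hold the same GC box. Other motifs searched on both strands were the cyclic AMP response element TGACGTCA (1.55% of promoters), the shorter TGACG that it contains (17.8%), the E-box CACGTG (6.02%) and the TATA box TATAAA (12.4%). Of these, TGACG matched in Whrn (1) and the first Eps8l1 start (2), and CACGTG matched in Gnai3 (1). A match describes the letters only. The table holds promoters for 6 of the 7 genes, without Eps8.

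Gpsm2 (ENSMUSG00000027883, chr3:108678638-108722309, minus strand), the LGN adaptor that links Gαi to its partners, had lower CPM in eGFP-GluA2 than in eGFP cells at each background, which TPM did not show at low background. It had 10.9, 16.9 and 20.3 CPM in the lowest, median and highest eGFP-GluA2 libraries, against 13.8, 20.3 and 24 CPM in eGFP libraries. Pooled, the groups overlapped, and the log2 fold change was −0.22 ± 0.15 (−0.53 to 0.10). Within each background they did not. Low-background libraries had 20.3 and 16.9 CPM in eGFP-GluA2 and 22.4, 24 and 21.5 CPM in eGFP cells. Middle-background libraries had 19.7, 16.7 and 19.9 CPM in eGFP-GluA2 and 21.4 and 20.3 CPM in eGFP cells. High-background libraries had 12.1 and 10.9 CPM in eGFP-GluA2 and 15.6, 18.4, 13.8 and 16.2 CPM in eGFP cells. From low to high background 15.3%, 9.22% and 5.50% of tested genes were lower without overlap. Such a pattern at all 3 levels was seen in 0.229% of tested genes. Gpsm2 was 1 of them, and with the background as a covariate its log2 fold change of −0.24 ± 0.11 did not pass. By TPM the groups overlapped at every background, and at low background the mean was 5.46 in eGFP-GluA2 and 5.14 in eGFP libraries. Its exons share 203 bases with Clcc1 on the other strand, and reads there cannot be assigned, since no source used here says whether counting used strand.

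Gnai3 (ENSMUSG00000000001, chr3:108107280-108146146, minus strand), the Gα subunit that LGN binds, had similar CPM in the genotypes. Its lowest, median and highest values were 17.7, 22.9 and 28.7 CPM in eGFP-GluA2 libraries and 16.8, 20.5 and 29.6 CPM in eGFP libraries. The groups overlapped at every background by CPM. By TPM they did not at low background, with 7.38 to 9.56 in eGFP-GluA2 and 5.69 to 6.64 in eGFP libraries. The share of all genes without overlap was taken by CPM only. The fitted log2 fold change was 0.05 ± 0.14, and its interval of −0.24 to 0.33 leaves out an increase of the size fitted for Eps8 or Whrn. Gnai3 was the minor form of its family: it made up 11.6% ± 1.10 of the summed Gnai1, Gnai2 and Gnai3 TPM (counts scaled for transcript length and to a fixed total) in eGFP-GluA2 and 11% ± 1.22 in eGFP libraries (SD). Gnai1 held 55.2% and 54.4% and Gnai2 33.2% and 34.5% in eGFP-GluA2 and eGFP libraries.

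Of the Eps8 relatives, Eps8l1 did not share the difference seen in Eps8, while the interval of Eps8l2 was too wide to exclude it. Eps8l1 (ENSMUSG00000006154, chr7:4460674-4480487, plus strand), a relative that can bind Abi1 and Sos1 in Rac signalling, had 9.42, 15.05 and 23.0 CPM in the lowest, median and highest eGFP-GluA2 libraries. In eGFP libraries it had 10.5, 14.7 and 19.0 CPM, and the groups overlapped at every background. Its log2 fold change was 0.06 ± 0.17 (−0.29 to 0.41). Eps8l2 (ENSMUSG00000025504, chr7:141338880-141363020, plus strand), which maintains stereocilia in adult hair cells, had 0.0708, 2.99 and 7.13 CPM in eGFP-GluA2 and 0, 4.30 and 8.54 CPM in eGFP libraries.

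Eps8l2 was near the detection limit where the background was low. There it had 1 and 5 reads in eGFP-GluA2 libraries and 0, 1 and 2 reads in eGFP libraries, where 3 reads, the upper limit that a count of 0 allows, stand for 0.212 to 0.280 CPM. This limit covers counting error only. In high-background libraries it had 5.28 to 8.54 CPM, and its log2 fold change between genotypes, −0.21 ± 0.90, had an interval of −2.11 to 1.69. Of its exon bases, 1729 are shared with B230206H07Rik on the other strand.

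By TPM, Eps8 made up more of its family in eGFP-GluA2 libraries. Eps8 made up 38.5% ± 12.6 of the summed TPM of Eps8, Eps8l1, Eps8l2 and Eps8l3 in eGFP-GluA2 and 26.7% ± 8.60 in eGFP libraries (SD, n = 7 and 9). Eps8l1 held the largest mean share in both groups, 52.3% ± 12 in eGFP-GluA2 and 63.4% ± 13.2 in eGFP libraries. The ranges of the Eps8 share overlapped, at 18.1% to 55.6% in eGFP-GluA2 and 14.7% to 43.9% in eGFP libraries. The share contains the chosen difference and was not tested.

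The order of levels within control cells was not itself used for the choice. Eps8 and Whrn, however, were chosen for being lower in these cells than in eGFP-GluA2 cells. Their places in the order are therefore not free of the choice. In the 9 eGFP libraries Whrn averaged 8.69 ± 3.50 TPM, Eps8l1 7.34 ± 2.90 TPM, Gpsm2 4.99 ± 1.07 TPM and Gnai3 4.98 ± 0.99 TPM (SD). Below them came Eps8 at 2.98 ± 1.06 TPM, Eps8l2 at 0.957 ± 0.863 TPM and Myo15 at 0.366 ± 0.372 TPM. The scaffold, the Eps8l1 relative and the LGN and Gαi3 pair were thus all above Eps8 itself in the controls. In eGFP-GluA2 libraries Eps8, at 4.99 TPM, was above Gpsm2, at 4.29 TPM, while Whrn, Eps8l1 and Gnai3 stayed above Eps8. Over all 16 libraries Gpsm2 was above Eps8 in 11. That count mixes the genotypes and contains the chosen difference, so no test is read from it. Whrn lay above 70.8% of 21918 protein-coding genes by mean TPM and Myo15 above 21.6%.

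Neighbours in this order were compared with exact two-sided permutation tests on log2(TPM + 0.1) within libraries, over 6 pairs. The pairs were set by the order of means in these same libraries. Whrn and Eps8l1 could not be told apart (adjusted p = 0.309 in the exact test, Whrn higher in 6 of 9 libraries), nor could Gpsm2 and Gnai3 (adjusted p = 0.980, exact test). Eps8l1 was above Gpsm2 in 7 of 9 libraries (adjusted p = 0.0352, exact test), but Eps8l1 was no longer apart from the gene next below it when any of 7 libraries was left out, all but replicates 2 and 9 (adjusted p of 0.0703 to 0.188, exact tests). Gnai3 was above Eps8 in 8 of 9 and Eps8 above Eps8l2 in 9 of 9 libraries. No p-value is given for these pairs, since Eps8 was chosen for being lower in these cells. Eps8l2 was above Myo15 in 8 of 9 libraries (adjusted p = 0.0156, exact test). In the 3 low-background eGFP libraries the means were 7.00 TPM for Eps8l1, 6.28 for Whrn, 6.13 for Gnai3, 5.14 for Gpsm2 and 2.42 for Eps8. There Eps8l2 had 0.166 TPM and Myo15 0.0221 TPM, both far under their means over all 9 libraries.

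**Figure D4:**
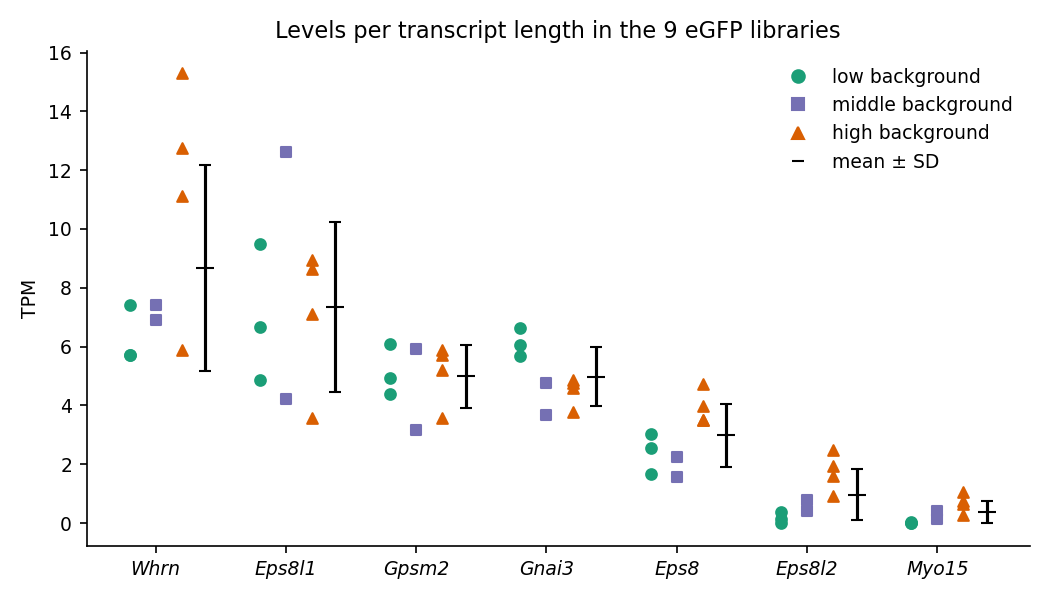
TPM of the 7 genes in each of the 9 eGFP libraries, ordered by their mean, with points split by background and the mean with its SD. Whrn has the highest mean at 8.69 TPM, and Eps8l2 and Myo15 are close to 0 at low background.

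The order depended in part on the scaling for length. Counts per kilobase of merged exons put Gnai3 first, then Gpsm2, Whrn, Eps8l1, Eps8, Myo15 and Eps8l2. In the same exact test 4 of 6 neighbours were apart, but the calls differed from those on TPM. Myo15 was above Eps8l2 in 9 of 9 libraries, the reverse of the TPM order. Gnai3 was above Gpsm2 in 9 of 9 too (adjusted p = 0.00586 for both pairs, exact test). Whrn was above Eps8l1 in 9 of 9 as well, which is not free of the choice of Whrn. Eps8 and Myo15 were not apart (adjusted p = 0.131, exact test, Eps8 higher in 5 of 9). Eps8 stayed below Gnai3, Gpsm2, Whrn and Eps8l1 on both scales.

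Other genes of the pathway were looked at as 5 lists, 102 genes in all, and each passed the filter. None was called in either direction by edgeR without covariates, with the background as a covariate or with 1 surrogate variable, nor by DESeq2 or limma-voom. At an unadjusted p under 0.05, 1 of the 102 was found by edgeR: Actn1, which codes for the crosslinker α-actinin 1, at 0.18 ± 0.08 on the log2 scale (26.2 ± 3.20 CPM in eGFP-GluA2, 23.2 ± 2.10 CPM in eGFP). Over all tested genes 1.12% were under that p, so 1 of 102 is no more than the share of all genes. Over all genes 45.5% had a log2 fold change above 0, with a median of −0.02.

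Of 15 signalling partners of Eps8, 3 had log2 fold changes above 0 (median −0.04). The 2 of smallest p were Baiap2l2, an I-BAR protein that binds membranes at stereocilia tips (−0.28 ± 0.14, adjusted p = 1.00 by edgeR), and Sos2, an exchange factor for Ras and Rac (−0.08 ± 0.10). Of 16 partners of whirlin and Usher proteins, 4 were above 0 (median −0.03). Pdzd7, a PDZ scaffold related to whirlin, had 43.8 ± 8.01 CPM in eGFP-GluA2 and 39.8 ± 5.06 CPM in eGFP cells, and its log2 fold change was 0.14 ± 0.11. Adgrv1, the adhesion receptor of ankle links, was at −0.21 ± 0.53.

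The Gαi and LGN-related list had 9 of 17 above 0 (median 0.03), with Gnai2 at 0.14 ± 0.12 and Gnaz at 0.18 ± 0.24. Of 24 unconventional myosins, 9 were above 0 (median −0.07), with Myo1e at −0.18 ± 0.17. Of 33 genes for capping, bundling and turnover of actin filaments, 16 were above 0 (median −0.01). Beside Actn1, Cd2ap, which binds capping protein, was at −0.09 ± 0.08.

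**Figure D5:**
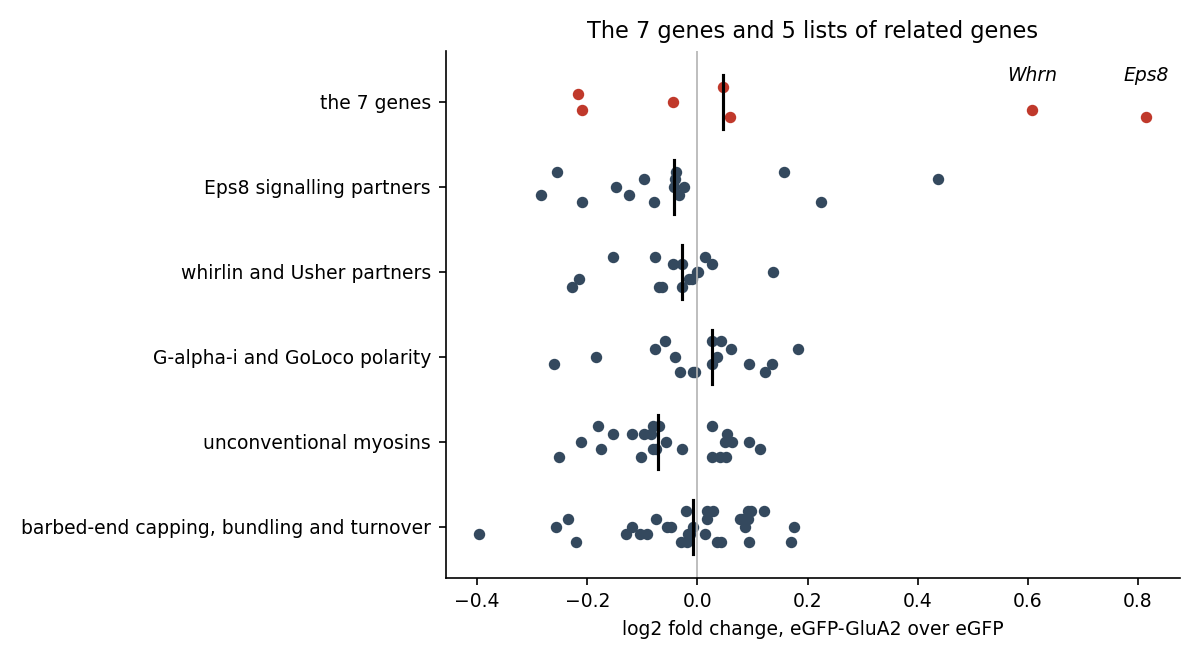
Log2 fold change of eGFP-GluA2 over eGFP (edgeR, 16 libraries) for the 7 genes and for each gene of the 5 lists, one point per gene, with the median as a bar. Eps8 at 0.82 and Whrn at 0.61 lie to the right of all 102 list genes, of which the highest, in the list of Eps8 partners, is at 0.44; Eps8 and Whrn were chosen for this value.

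The hair-cell partners of whirlin rose with the background more often than they fell. Of that list 10 of 16 rose and 4 fell, against 44.0% and 31.4% of all genes. Myo3a, a motor that carries espin to tips, had 0 to 0.280 CPM at low and 4.15 to 9.26 CPM at high background (slope 0.99 ± 0.06). Ush1c, the harmonin scaffold, had 0.0708 to 0.374 CPM at low and 5.94 to 10.8 CPM at high background (0.92 ± 0.06). Cdh23, which forms tip links, rose at 0.68 ± 0.03 and the bundler Espn at 0.77 ± 0.05. Myo3a and Ush1c, like Myo15 and Eps8l2, had no more than 1.5 CPM in any low-background library of either genotype.

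Other partners were present whatever the background. Pcdh15, the partner of Cdh23 in tip links, had 69.2 to 89.2 CPM at low and 65.7 to 74.8 CPM at high background, and Pdzd7 35.5 to 42.9 CPM and 33.3 to 45.7 CPM. Cask, a synaptic scaffold that binds whirlin, fell with a slope of −0.18 ± 0.03, and Lrrc4c, a synaptic adhesion protein that binds whirlin, at −0.16 ± 0.02. The remaining lists had 6 rising and 9 falling (Eps8 partners), 5 and 10 (Gαi and LGN), 14 and 7 (myosins) and 10 and 15 (capping and bundling).

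Genes whose pattern was most like that of Eps8 or Whrn were sought among 11822 protein-coding genes, by the Pearson correlation of log2 CPM over the 16 libraries after the genotype and the log2 background were taken out. For Eps8 these were Mylip (r = 0.77), Zfp831 (0.74), Dmrt2 (0.73), Shisa8 (0.73) and Amn (0.71). For Whrn they were Ccdc157 (0.93), Tmem145 (0.93), Fbrs (0.90), Kmt2b (0.90) and Pitpnm3 (0.89). The libraries' depth and composition are shared by all genes, and the best values of so many are high by selection. Eps8 and Whrn were hardly related to each other in this measure (r = 0.07).

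By TPM over all libraries, the groups overlapped more for Eps8 and Whrn than by CPM. There, Eps8 averaged 4.99 ± 1.77 in eGFP-GluA2 and 2.98 ± 1.06 in eGFP libraries, with 4 of 7 eGFP-GluA2 libraries above all eGFP libraries. Whrn averaged 11.8 ± 2.99 TPM in eGFP-GluA2 and 8.69 ± 3.50 TPM in eGFP libraries, with 1 of 7 above. Within the low and the middle background the groups of neither gene overlapped by TPM, while at high background those of both did. Gpsm2 averaged 4.29 ± 1.18 TPM in eGFP-GluA2 and 4.99 ± 1.07 TPM in eGFP libraries. In the authors' deposited table the log2 fold change was 0.46 for Eps8, 0.31 for Whrn and −0.28 for Gpsm2, each with an adjusted p close to 1. The standard error for Myo15 was 0.106 in the authors' deposited table, against 0.758 in DESeq2 on the deposited counts, so the sizes in that table are not compared with those above. Reads recovered from that table came to 0.834 of the deposited counts for Eps8 and 0.832 for Whrn, and over all genes with enough counts to a median of 0.892. The fractions were 0.345 for Myo15 and 0.366 for Eps8l2. For Whrn it was 0.775 in eGFP-GluA2 and 0.893 in eGFP libraries, and for Eps8 0.799 and 0.877. The fraction was also lower in eGFP-GluA2 libraries for Eps8l1 (0.650 and 0.729), Gpsm2 (0.854 and 0.906) and Myo15 (0.315 and 0.364). It was higher there for Gnai3 (0.897 and 0.880) and Eps8l2 (0.478 and 0.302). The fraction varied with the background too, for Whrn 0.802, 0.750 and 0.929 from low to high. What part the genotype has in it was not tested.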

How the data were processed

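RNA-seq of sorted, fixed cells was deposited as 3 tables. Per the series' design text, the authors used bcbio-nextgen 1.2.3, aligned to GRCm38 with STAR, quantified with Sailfish and compared groups with DESeq2. The deposited count table holds whole, unnormalized reads for 54532 genes, and no source used here names its counter. TPM values, deposited by the authors, are scaled by transcript length. The last deposited table holds signal values (counts over a size factor) beside the authors' log2 fold change, test statistic (a score) and p-values. Of its values 100% were whole multiples of 1 read, within a tolerance of 0.001, which gave 10477517 to 17382059 recovered reads a library. Once a factor per library was taken out, these reads over TPM were constant per gene, so both tables hold one measurement.

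Identifiers were named from GENCODE M21, 54409 of them, with 123 unnamed. The main test was edgeR 4.0.16: TMM, filterByExpr (26257 genes kept, 99.2% of counts), a robust quasi-likelihood F test, Benjamini-Hochberg adjustment and a threshold of 0.05. CPM is TMM-scaled, and log2 CPM has a prior count of 2. The slope on background came from the same model with the log2 background added. Alternatives were DESeq2 1.42.0, limma 3.58.1, sva 3.50.0, other scalings and filters, background tiers bounded at 500 and 1500 CPM, a replicate block and leaving out each library. Low-background libraries only and protein-coding genes only were added after seeing the data. Marker lists (7) and pathway lists (5) held 47 and 102 genes. The genes, the lists and the background measure were chosen with earlier results of these data known. List genes named are those past the threshold or the 2 of smallest p, and slope examples were chosen after their values were seen. Some genes that this rule names are not reported here. The p-values measure the spread between libraries labelled as biological replicates. R 4.3.3, Python 3.11.15 and scipy 1.17.1 were used, and the edgeR fit was tested on simulated data.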

Additional observations from a re-analysis of the deposited data

Results flagged for a closer look

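Whrn in eGFP-GluA2 replicate 1 stood apart from the other 6 eGFP-GluA2 libraries. It had a log2 CPM of 5.25 (38 CPM, next lowest 52.0 CPM), a gap of 0.60 of the group's whole range. This library had a high background. Chance flags about 1 in 20 groups in such a test, and 14 were made over the 7 genes.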

How the results depend on the processing

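The number of genes called between eGFP-GluA2 and eGFP, 1 in the test without covariates, was 8 by DESeq2, 2 with upper-quartile scaling, 9 with the background covariate, 11 with background tiers and 9 with 1 surrogate variable. It was 2 and 3 with limma on log2(TPM + 0.5) and log2(TPM + 0.1), 3 on recovered reads, 3 without the high-background libraries and 154 in the low-background libraries only. Without each library in turn it stayed at 1. Among protein-coding genes only, edgeR called 0, with 196 of 17898 at an unadjusted p under 0.05. With the replicate block 7 were called, and the log2 fold changes were 0.73 for Eps8 and 0.54 for Whrn. The numbers do not pair the libraries: same-numbered correlations ran from −0.0285 to 0.904, and 2 of 7 libraries correlated best with their own number.

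Eps8 kept its direction in every setting, from 0.66 (limma on log2(TPM + 0.5) and recovered reads) to 1.41 (low-background libraries only), as did Whrn, from 0.38 (recovered reads) to 0.83. Both were chosen for this difference in these same libraries, so their kept direction is no check of it. Gpsm2 was below 0 in every setting, from −0.33 to −0.13. The other signs were not stable. Myo15 reversed to 0.18 with the background covariate, 0.12 with tiers, 0.17 with the surrogate variable and 0.72 without the high-background libraries. Eps8l2 reversed to 0.024 with the background covariate, 0.015 with the surrogate variable, 0.18 and 0.27 on TPM, 0.38 on recovered reads and 0.50 without the high-background libraries. Eps8l1 reversed to −0.044 on both TPM scales, −0.17 on recovered reads and −0.28 in low-background libraries. Leaving out each library gave −0.34 to 0.18 for Myo15, −0.49 to 0.018 for Eps8l2, −0.063 to 0.15 for Eps8l1 and −0.019 to 0.11 for Gnai3. The slopes of Eps8 and Whrn reversed to 0.013 each with RLE scaling and ran from −0.019 to 0.023 and −0.017 to 0.032 without each library. The count of genes with a slope, 19796, ran from 17786 to 22304. Neighbouring levels apart, 4 of 6, were 3 to 4 without each library and 5 over all 16, which mix the genotypes. These counts include pairs with Eps8 or Whrn, which are not free of the choice. The causes were not tested. The wide intervals of Myo15 and Eps8l2 and their 0 to 16 reads in low-background libraries limit what can be said of both.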
